A study of Homo sapiens with 18 samples.

Results

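The genes described here are the small nucleolar RNA (snoRNA) genes that the arrays measured 1 by 1 in Raji cells, an established B-cell line from a Burkitt lymphoma that carries Epstein-Barr virus. They were taken as every gene whose symbol begins with SNORD or SNORA and a digit in the platform's gene table, from probe sets that name 1 gene, with the probe set of highest mean over the 18 arrays standing for the gene. This gave 176 of 18417 genes tested, 115 of box C/D (SNORD) and 61 of box H/ACA (SNORA). Cells were harvested at 4, 8, 12, 24 and 48 h and at 0 h, with 3 biological replicates per time. Every group, the 0 h group included, carries the same labels of sodium n-butyrate (3 mM) and phorbol ester (0.05 µM) as inducers and maslinic acid (19 µM), and whether the 0 h cells had been exposed before harvest is not given in the sources used here. Each comparison sets a later harvest against 0 h, and an effect of the compounds cannot be told apart from one of time. Butyrate is an inhibitor of histone deacetylases and phorbol ester an activator of protein kinase C, both known to switch such lines to the viral lytic cycle. Untreated cells were not analysed here, and the labels describe 1 cell line only.

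SnoRNAs are short nuclear RNAs that guide the modification of ribosomal RNA. Box C/D snoRNAs direct the methylation of riboses and are bound by fibrillarin (FBL), NOP56, NOP58 and SNU13, whereas box H/ACA snoRNAs direct the change of uridine to pseudouridine and are bound by dyskerin (DKC1), NHP2, NOP10 and GAR1. A few members are needed for the cleavage of the ribosomal RNA precursor. In human cells most snoRNAs lie in introns of other genes, called host genes, and are trimmed out of the spliced intron by exonucleases, so that 1 transcript can give both a host RNA and a snoRNA. Many hosts are ribosomal protein genes or long noncoding genes of the SNHG group.

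All levels below are log2 signals of a probe set, and all differences are a later time minus 0 h on that log2 scale. A gene was called where limma's moderated test gave a Benjamini-Hochberg adjusted p under 0.05 over all 18417 genes. The array cannot tell a mature snoRNA from unspliced host RNA that holds the same bases, and how well the purification columns kept RNAs this short is not given in the sources used here. In a bulk extract, fewer cells of a type and less RNA per cell cannot be told apart. Signal of a probe set also depends on its probes, so levels are not ordered between genes. Of the 176 members, 85 had a mean below the lower quartile of all genes (3.40). Members of the SNORD113 to SNORD116 families, which lie in imprinted clusters on chromosomes 14 and 15, made up 45 of these 85. The probe set medians of the 18 arrays lay between 4.03 and 4.25, and 5 of 7 B cell marker genes were measured, with a mean per array of 6.33 to 7.96. Of these 5, MS4A1, PAX5 and CD22 were called lower at 12 h, PAX5 also at 8 h and CD79A at 48 h. The marker lists of T cells, monocytes, epithelium and fibroblasts averaged 3.22 to 3.91, 3.21 to 3.59, 3.24 to 3.57 and 3.89 to 4.26 per array. Of these lists, the T cell marker CD3D alone was called, with 5.03, 4.33 and 5.16 at 24 h, against 3.24, 3.02 and 3.54 at 0 h (difference 1.57, adjusted p = 0.00297), and its part in the 24 h results was not tested.

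The 24 h harvest had the most snoRNA genes called lower of the 5 later times. Of the 176 members, 29 were called lower than at 0 h, which is 16.5% against 5.74% of all genes tested. No member was called higher (0 of 176, against 6.74% of all genes), and 0 members were higher at an unadjusted p under 0.05 by limma, where 54 were lower. With array weights, the alternative with the highest count, 51 members were called at 24 h, beside 3256 of 18417 genes in either direction. The difference was negative for 158 members (89.8%) and for 51.0% of all genes, and its median was -0.34 over the members and -0.01 over all genes. These 158 included 43 of the 46 members of the SNORD113 to SNORD116 families, nearly all of them dim, where a negative sign alone does not show a fall. The others were 62 of 69 further SNORD members and 53 of 61 SNORA members. Of the 29, 27 fell at least 2-fold, and 27 had their 3 arrays of 24 h below all 3 arrays of 0 h. The count moved by over 1.5 times with 2 arrays. Leaving out replicate 1 of 24 h gave 18 members, beside 1634 of 18417 genes in either direction. Leaving out replicate 1 of 0 h gave 16 members, beside 1812 genes, where the main fit called 2298. With either array left out, all members called were lower, and their share lay near that of all genes in either direction. The share of all genes called lower is not given for these fits, so they cannot be set beside the 5.74% of the main fit.

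The earlier and later times showed smaller counts in the same direction. At 4 h, 5 members were called lower (2.84%, against 0.586% of all genes) and 0 higher (against 1.16%), with 1 member higher and 38 lower at an unadjusted p under 0.05 by limma. At 8 h, 7 members were lower (3.98%, against 3.18%) and 1 was higher (against 3.50%), so that the share called lower lay near that of all genes. At 12 h, 16 members were lower (9.09%, against 4.14%) and 0 higher (against 3.91%), with 2 higher and 41 lower at an unadjusted p under 0.05 by limma. At 48 h, 14 members were lower (7.95%, against 8.11%) and 2 were higher (against 6.92%), again a share near the background. The median difference of the members over 4, 8, 12, 24 and 48 h ran -0.31, -0.11, -0.28, -0.34 and -0.24, while that of all genes stayed between -0.02 and 0.05.

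The counts at 4 and 8 h moved with single arrays. At 4 h the count in either direction (5 of 176, against 1.75% of all genes) became 0, 1 and 8 with replicates 1, 2 and 3 of 4 h left out, and 1 and 2 with replicates 1 and 2 of 0 h left out. At 8 h that count (8 of 176, against 6.68%) became 0, 2 and 14 with replicates 1, 2 and 3 of 8 h left out, and 2, 4 and 1 with those of 0 h left out. At 12 h it (16 of 176, against 8.05%) became 8 with either replicate 1 or replicate 2 of 12 h left out, and 10 with replicate 1 of 0 h left out. The F test over all 5 later times called 20 of 176 members (11.4%, against 16.4% of all genes), which is below the background in the main fit. With each array centred on its median it called 32 members and 3266 of 18417 genes. With array weights it called 60 members and 5422 genes. With centring and with array weights the member share was thus not below that of all genes. Under every other alternative to which the F test was put, leaving out each array included, it stayed below. Quantile normalization gave 24 members and 3150 genes, and the replicate block 22 and 3218. Without the dimmest 25% of genes it called 13 of 91 members and 3051 of 13812 genes. Leaving out replicate 2 of 8 h gave 29 members and 3240 genes, the most members with 1 array left out.

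**Figure D1:**
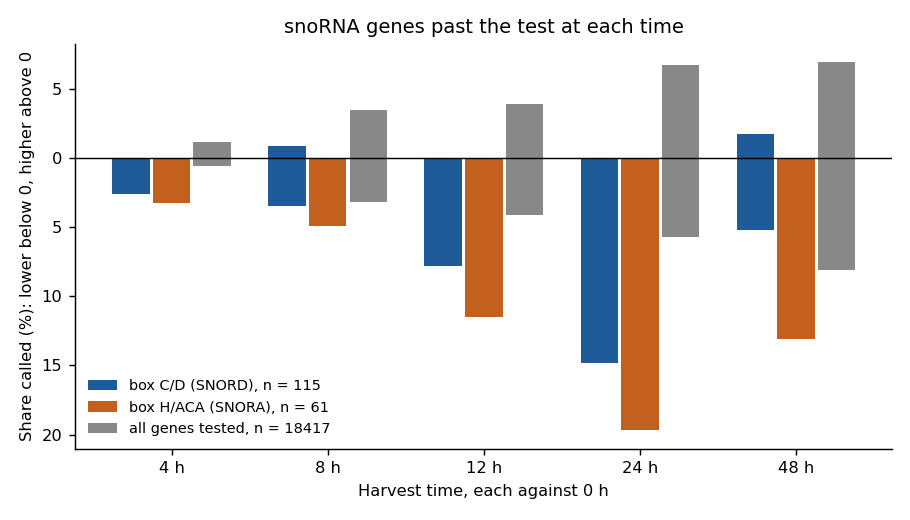
Share of genes called lower (below 0) and higher (above 0) at each later harvest against 0 h, in percent of 115 SNORD members, 61 SNORA members and 18417 genes tested. At 24 h the bars of both snoRNA classes reach 14.8% and 19.7% on the lower side, with no bar on the higher side.

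Members of both classes were called lower. Over 4, 8, 12, 24 and 48 h, 3, 4, 9, 17 and 6 of 115 SNORD members were lower, and 2, 3, 7, 12 and 8 of 61 SNORA members. In percent these are 2.61, 3.48, 7.83, 14.8 and 5.22 of the SNORD members and 3.28, 4.92, 11.5, 19.7 and 13.1 of the SNORA members, against 0.586, 3.18, 4.14, 5.74 and 8.11 of all genes. The SNORD share lay near that of all genes at 8 h and below it at 48 h. The median difference at 24 h was -0.36 for SNORD and -0.31 for SNORA, and at 4 h it was -0.38 for SNORD and -0.13 for SNORA. The mean change of the SNORD members minus that of the SNORA members over those times ran -0.209, -0.00281, -0.104, 0.0237 and 0.0856. No test was made of the difference between classes, whose members differ in level. Without the dimmest 25% of genes this difference was -0.345 at 4 h and -0.109 at 24 h.

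The 46 measured members of the SNORD113, SNORD114, SNORD115 and SNORD116 families, most of which have no known target in ribosomal RNA, gave few calls. Of these 46, 0 were called lower at any of the 5 times, where 0.586% to 8.11% of all genes were, and 1 was called higher, at 48 h, by limma, and 1 member each at 4 h and 24 h was lower at an unadjusted p under 0.05. Over 4, 8, 12, 24 and 48 h, 42, 28, 43, 43 and 37 of the 46 differences were negative. All but 1 of the 46 lay below the lower quartile of gene means. The exception, SNORD116-15, averaged 5.58 and was not called at any time. Of the other 69 SNORD members, 17 were lower at 24 h (24.6%, against 5.74% of all genes), with a median difference of -0.65.

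The mean over the 69 SNORD members outside the imprinted clusters over 0, 4, 8, 12, 24 and 48 h ran 5.65 ± 0.26, 5.06 ± 0.22, 5.35 ± 0.31, 5.09 ± 0.09, 4.97 ± 0.09 and 5.27 ± 0.23 (SD, n = 3 each). The mean over the 61 SNORA members was 4.41 ± 0.17, 4.17 ± 0.07, 4.22 ± 0.22, 4.08 ± 0.04, 3.90 ± 0.04 and 4.05 ± 0.15 at those 6 times. In both classes the 3 arrays of 24 h lay below all 3 arrays of 0 h, and replicate 1 stood highest at 0 h. That array had a mean of 5.94 over these SNORD members, where replicates 2 and 3 of 0 h had 5.57 and 5.45, and its part in the results is shown by the counts without it.

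**Figure D2:**
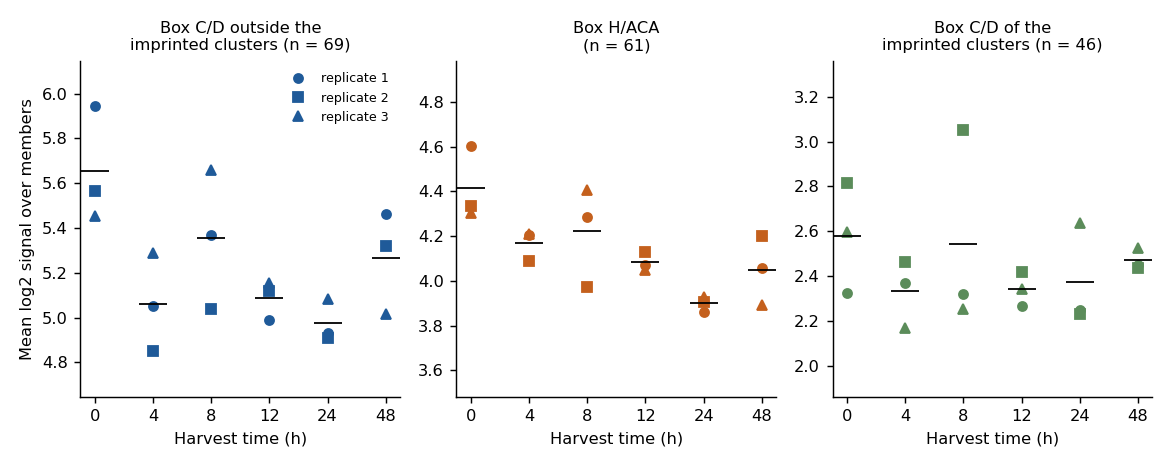
Mean log2 signal over the members on each array against harvest time, for box C/D members outside the imprinted clusters (69), box H/ACA members (61) and box C/D members of the imprinted clusters (46), with points for arrays and black bars for the mean of 3. The 24 h arrays lie below the 0 h arrays in the first and second panel, and overlap them in the third, where replicate 2 of 8 h stands at 3.05.

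Over the 5 later times 35 members were called at least once, 33 of them lower (18 SNORD and 15 SNORA) and 3 higher, with SNORD14C in both directions at different times. Of the 29 members lower at 24 h, 14 were also lower at 12 h and 12 also at 48 h, and 17 passed the F test. Among members described below, SNORA62, SNORA21, SNORD53, SNORA3B and SNORD50A did not pass the F test. SNORD20, SNORA41 and SNORA75 were lower at all 5 times, and SNORD34 was among those lower at 4 of them. Of 12 alternatives, the 4 h call was lost in 4 for SNORD20, 2 for SNORA41 and 7 for SNORA75, and the 8 h call in 5, 7 and 5, while none of the 3 lost its 24 h call. The comparisons share the 0 h arrays, so that these counts are not independent of each other.

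Among snoRNAs of the ribosomal precursor's cleavage, SNORD14 (U14), which acts both in methylation of the small subunit's RNA and in its release from the precursor, was measured by 2 members, both held by HSPA8. HSPA8 encodes the constitutive chaperone of the heat shock protein 70 family. SNORD14E had log2 signals of 3.32, 3.48 and 4.48 at 24 h, against 6.68, 5.25 and 6.13 at 0 h. All 3 arrays of 24 h lay below those of 0 h, and the difference of -2.26 (SE 0.41, a 4.78-fold lower signal, limma adjusted p = 0.00111) was the largest of any member at 24 h. SNORD14C had 6.14, 6.24 and 7.26 at 24 h, against 8.42, 7.26 and 7.43 at 0 h. The nearest arrays of the 2 groups were only just apart, and the difference was -1.16 (SE 0.35, adjusted p = 0.0372).

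At 8 h the same pair stood on the other side of 0 h. SNORD14C had 9.49, 8.84 and 8.78 at 8 h, against 8.42, 7.26 and 7.43 at 0 h, and rose 2.51-fold (difference 1.33, SE 0.35, adjusted p = 0.0284). SNORD14E had 7.27, 7.0 and 7.04 at 8 h, against 6.68, 5.25 and 6.13 at 0 h. These groups did not overlap either, but the difference of 1.08 missed the threshold (adjusted p = 0.146). HSPA8 itself had 11.78, 11.82 and 11.54 at 8 h and 11.24, 11.37 and 11.39 at 24 h, against 11.58, 11.55 and 11.35 at 0 h. Neither HSPA8 difference was called (0.22, adjusted p = 0.476 at 8 h, and -0.16, adjusted p = 0.574 at 24 h). The 24 h call of SNORD14C was lost under 5 of 13 alternatives and its 8 h call under 4 of 13.

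The promoter of HSPA8 (GRCh38.p14, RefSeq, chr11:123062087-123062386, minus strand, 250 bases before the annotated start to 50 after it) is shown because this host belongs to the heat shock gene family and holds the member with the largest difference. Capitals mark matches to the heat shock element, searched as GAANNTTC and TTCNNGAA on both strands, which overlap in 2 places.
HSPA8: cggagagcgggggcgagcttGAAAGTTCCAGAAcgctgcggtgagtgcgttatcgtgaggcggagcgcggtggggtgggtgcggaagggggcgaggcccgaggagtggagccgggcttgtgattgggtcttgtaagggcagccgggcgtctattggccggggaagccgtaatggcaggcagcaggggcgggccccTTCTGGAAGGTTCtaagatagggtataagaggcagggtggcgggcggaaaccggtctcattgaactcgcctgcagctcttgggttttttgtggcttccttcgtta
Such a match was found in 13.7% of 27305 RefSeq promoters and in 14 of 73 host promoters (19.2%). It is a match of letters only.

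**Figure D3:**
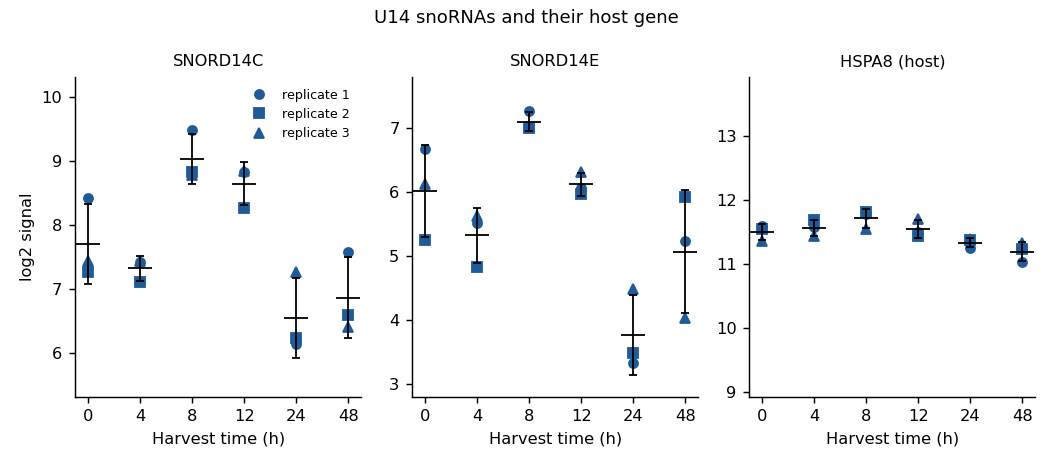
Log2 signal of SNORD14C, SNORD14E and their host gene HSPA8 on each of the 18 arrays against harvest time, with points for arrays and black bars for mean and SD of 3, each panel spanning 5 log2 units. On average both snoRNAs lie highest at 8 h and lowest at 24 h, while HSPA8 stays between 11.02 and 11.82.

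SNORD13 (U13), which takes part in maturation of the small subunit's RNA and is transcribed from a gene of its own, went without a call at every time. It had 9.13, 8.44 and 8.15 at 24 h and 9.96, 8.78 and 7.49 at 48 h, against 8.22, 7.73 and 7.40 at 0 h. The groups overlapped at both times, with differences of 0.79 (adjusted p = 0.328) and 0.96 (adjusted p = 0.18).

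The 3 snoRNAs of the nucleolin gene NCL were all called lower at 24 h. Nucleolin is an abundant nucleolar protein that binds the ribosomal precursor. SNORD82 had 6.03, 6.73 and 6.71 at 24 h, against 9.41, 8.10 and 7.91 at 0 h, a 3.95-fold lower signal (difference -1.98, SE 0.45, adjusted p = 0.0062). SNORA75 had 2.97, 2.71 and 2.74 at 24 h, against 5.85, 3.50 and 5.21 at 0 h, 4.14-fold lower (difference -2.05, SE 0.43, adjusted p = 0.00336). SNORD20, a guide for the small subunit's RNA, had 2.32, 2.24 and 2.67 at 24 h, against 3.35, 3.22 and 3.07 at 0 h (difference -0.81, SE 0.19, adjusted p = 0.00706). In each of the 3 the 24 h arrays lay below all 0 h arrays, and SNORD20 and SNORA75 were near the lower end of the scale at 24 h. SNORD20 lay below the lower quartile of gene means (3.40) at 0 h too.

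At 4 h SNORA75 and SNORD20 were also called, with differences of -1.73 (adjusted p = 0.048, lost in 7 of 12 alternatives) and -0.91 (adjusted p = 0.0178, lost in 4 of 12), whereas SNORD82 was called at 24 h alone. At 48 h SNORD82 had 9.23, 7.44 and 6.76, with replicate 1 as high as at 0 h. NCL had 11.22, 11.23 and 10.92 at 24 h, against 11.60, 11.49 and 11.37 at 0 h. These did not overlap, and the difference of -0.36 (SE 0.13) missed the threshold (adjusted p = 0.0845).

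**Figure D4:**
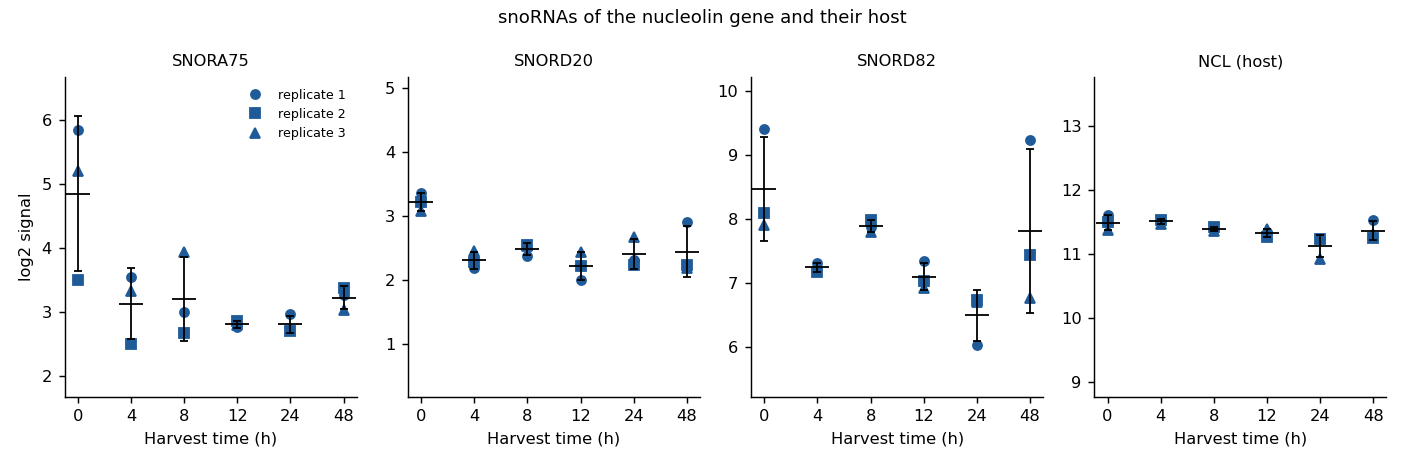
Log2 signal of SNORA75, SNORD20, SNORD82 and their host gene NCL on each of the 18 arrays against harvest time, with points for arrays and black bars for mean and SD of 3, each panel spanning 5 log2 units. The 3 snoRNAs lie lower at 24 h than at 0 h by 0.81 to 2.05, and NCL by 0.36.

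Ribosomal protein genes held 33 members. Of these, 10 were lower at 24 h (30.3%, median difference -0.97, against 5.74% of all genes called lower), beside 6 of 26 held by SNHG genes, GAS5, ZFAS1 or EPB41L4A-AS1 (23.1%, median -0.68) and 13 of 69 held by other genes (18.8%, median -0.34). Differences between these groups of hosts were not tested. The ribosomal protein hosts are known for a start in a run of pyrimidines, the terminal oligopyrimidine tract, which many SNHG genes share.

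SNORD58A, a guide for the large subunit's RNA held by RPL17, had 5.26, 5.25 and 5.51 at 12 h, against 7.34, 7.08 and 7.81 at 0 h. The groups lay well apart, and the fall of 4.2-fold (difference -2.07, SE 0.35, adjusted p = 0.000888) was its lowest point. At 24 h it had 5.65, 6.16 and 5.77, still below every 0 h array (difference -1.54, adjusted p = 0.0055). RPL17 differed by -1.05 at 12 h (adjusted p = 0.0347) and by -0.84 at 24 h (adjusted p = 0.0792).

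SNORD34, a guide for the large subunit's RNA held by RPL13A, had 2.73, 2.95 and 2.08 at 12 h, against 4.31, 4.41 and 4.49 at 0 h. It fell 3.53-fold there (difference -1.82, SE 0.28, adjusted p = 0.000491) and lay below the 0 h arrays at 24 h too, with 3.05, 2.89 and 3.65 (adjusted p = 0.00776). SNORD32A, SNORD33 and SNORD35A of the same host had differences of -1.14, -0.38 and -0.65 at 24 h and were not called.

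RPSA, which encodes a small subunit protein also known as a laminin receptor, holds SNORA6 and SNORA62. SNORA6 had 3.64, 4.26 and 4.29 at 24 h, against 6.20, 5.61 and 5.55 at 0 h, 3.29-fold lower with no overlap (difference -1.72, SE 0.35, adjusted p = 0.00292). SNORA62 had 2.16, 3.31 and 2.88 at 48 h, against 4.61, 5.15 and 4.74 at 0 h, with no overlap (difference -2.05, SE 0.50, adjusted p = 0.00794). Its 48 h arrays lay below the lower quartile of all genes, where a difference can be understated. SNORA62 did not pass the F test, and it was not called at 24 h, where it had 3.38, 3.72 and 4.50 (difference -0.97, adjusted p = 0.268).

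SNORA21, held by RPL23, had 3.85, 3.10 and 3.57 at 24 h, against 4.97, 5.40 and 5.66 at 0 h, a 3.57-fold fall (difference -1.83, SE 0.47, adjusted p = 0.0145). SNORA10, held by RPS2, had 5.23, 5.42 and 5.40 at 24 h, against 6.41, 6.71 and 6.17 at 0 h, a tight pair of groups that differed by -1.08 (SE 0.18, adjusted p = 0.000531). Neither member's groups overlapped, and RPS2 differed by -0.33 at 24 h (adjusted p = 0.335). SNORA3B of RPL27A had 6.74, 6.69 and 6.51 at 24 h, against 9.06, 8.08 and 7.26 at 0 h (difference -1.49, adjusted p = 0.0216). SNORA33 of RPS12 had 7.0, 7.0 and 6.12 at 24 h, against 7.91, 8.42 and 7.39 at 0 h (difference -1.20, adjusted p = 0.0348). Both lay below their 0 h arrays without overlap. Of 13 alternatives, the 24 h call of SNORA3B was lost in 5 and that of SNORA33 in 3.

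The promoters of RPL13A and RPSA (GRCh38.p14, RefSeq, plus strand, chr19:49487358-49487657 and chr3:39406470-39406769) are shown as ribosomal protein hosts of members that fell. Capitals mark the run of pyrimidines that begins with C near the annotated start, which follows the first 250 bases.
RPL13A: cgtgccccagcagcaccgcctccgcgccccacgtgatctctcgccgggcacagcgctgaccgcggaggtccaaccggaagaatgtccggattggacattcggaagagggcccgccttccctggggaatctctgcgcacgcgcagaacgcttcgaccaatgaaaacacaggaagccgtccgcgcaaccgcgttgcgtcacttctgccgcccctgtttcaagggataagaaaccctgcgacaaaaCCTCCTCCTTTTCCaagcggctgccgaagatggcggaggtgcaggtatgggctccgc
RPSA: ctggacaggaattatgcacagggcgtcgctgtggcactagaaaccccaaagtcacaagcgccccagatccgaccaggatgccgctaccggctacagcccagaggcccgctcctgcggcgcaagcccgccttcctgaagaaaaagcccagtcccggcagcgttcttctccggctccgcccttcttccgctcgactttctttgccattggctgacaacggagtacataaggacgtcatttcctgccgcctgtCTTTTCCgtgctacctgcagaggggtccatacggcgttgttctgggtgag
A C followed by 5 or more pyrimidines that began within 10 bases of the start, on the transcribed strand, was found in 19% of 27305 promoters. It was found in 10 of 12 ribosomal protein hosts (83.3%) and in 19 of 61 other hosts (31.1%). This motif was chosen after the values were seen.

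Among the long noncoding hosts, SNHG5 holds SNORD50A and SNORD50B, guides for the large subunit's RNA. SNORD50B had 6.95, 6.65 and 7.37 at 24 h, against 8.23, 9.05 and 7.95 at 0 h, 2.67-fold lower with no overlap (difference -1.42, SE 0.30, adjusted p = 0.0035). SNORD50A also fell at 24 h (difference -1.23, adjusted p = 0.012). SNHG1 holds SNORD28 and SNORD30. SNORD28, a guide for the small subunit's RNA, had 7.05, 7.39 and 6.72 at 24 h, against 8.82, 8.34 and 7.63 at 0 h, and fell 2.31-fold (difference -1.21, SE 0.31, adjusted p = 0.0132). SNORD30 of the same host had 8.20, 8.67 and 8.13 at 24 h, against 9.59, 9.12 and 7.79 at 0 h, overlapped with 0 h and was not called (difference -0.50, adjusted p = 0.591).

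SNORA24, a guide for the small subunit's RNA held by SNHG8, was low early. It had 3.95, 3.58 and 4.25 at 8 h and 4.19, 3.45 and 3.96 at 12 h, against 4.95, 5.20 and 5.20 at 0 h, and fell at both times (differences -1.19, adjusted p = 0.0359, and -1.25, adjusted p = 0.0238). Of 13 alternatives, SNORA24 lost its 8 h call in 5 and its 12 h call in 4. At 48 h, 2 of its arrays stood above all of 0 h with 5.30 and 5.42, and the third at 3.76. GAS5 holds 7 members, of which SNORD77 was called lower at 24 h (difference -1.09, adjusted p = 0.00282). The other 6 had differences down to -0.83, among them SNORD78 (8.89, 9.38 and 9.75 at 24 h, against 9.91, 9.79 and 8.86 at 0 h, adjusted p = 0.797) and SNORD81 (8.62, 8.62 and 9.05 at 24 h, against 9.45, 9.41 and 8.97 at 0 h, adjusted p = 0.297). SNORD57 of NOP56 had 9.93, 10.39 and 10.32 at 24 h, against 10.87, 10.50 and 10.65 at 0 h, which did not overlap but was not called (difference -0.46, adjusted p = 0.342).

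Members held by further protein-coding genes included these. SNORA23 of IPO7, an importin gene, had 3.62, 4.42 and 3.64 at 24 h, against 4.73, 5.14 and 6.07 at 0 h (difference -1.42, SE 0.32, adjusted p = 0.0055). SNORA20 of TCP1, a subunit of the chaperonin that folds actin and tubulin, had 2.74, 2.91 and 3.28 at 12 h, against 5.10, 4.20 and 4.19 at 0 h (difference -1.52, SE 0.31, adjusted p = 0.0041). In neither did the groups overlap. SNORA41 of EEF1B2, an elongation factor gene, had 2.64, 2.68 and 3.03 at 24 h, against 3.90, 3.73 and 4.23 at 0 h, again without overlap (difference -1.17, SE 0.20, adjusted p = 0.000814).

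SNORD53 of WDR43, a ribosome assembly gene, had 4.90, 5.44 and 5.60 at 24 h, against 7.77, 6.28 and 6.53 at 0 h, 2.93-fold lower without overlap (difference -1.55, SE 0.41, adjusted p = 0.0168). SNORD45A of RABGGTB, which encodes a subunit of a prenyltransferase, had 5.24, 5.01 and 5.0 at 48 h, against 6.86, 6.94 and 5.45 at 0 h (difference -1.34, SE 0.34, adjusted p = 0.0113). Its arrays lay apart at 48 h, but at 24 h, where it was also called (adjusted p = 0.0464), 5.72 exceeded the lowest 0 h array. Of 13 alternatives, SNORD45A lost its 24 h call in 5 and its 48 h call in 2. SNORA57 of CSKMT had 5.73, 5.69 and 5.95 at 24 h, against 6.36, 5.77 and 6.0 at 0 h, overlapped and was not called at any time.

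At 48 h SNORD114-26 and SNORD13P1 were called higher. SNORD114-26 of the chromosome 14 cluster had 5.08, 4.53 and 2.99 at 48 h, against 2.30, 2.88 and 2.98 at 0 h. Replicate 3 of 48 h sat at the level of 0 h, so that the difference of 1.48 (SE 0.35, adjusted p = 0.00641) rested on replicates 1 and 2. SNORD13P1, a pseudogene of SNORD13, had 3.28, 2.92 and 3.48 at 48 h, against 2.08, 2.56 and 2.45 at 0 h, all on the higher side but within the dimmest 25% of genes (difference 0.86, SE 0.18, adjusted p = 0.00254).

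For 80 members the gene that holds them was measured too, over 60 hosts. At 24 h, 20 of these members were called, all lower, against 5.74% of all genes. In 11 of the 80 pairs the host was called, a share near the 12.5% of all genes called in either direction. By direction, 7 of the 60 hosts were called lower and 2 higher (POR and AAK1), against 5.74% and 6.74% of all genes. The host share called lower was thus above that of all genes. Both were called in 2 pairs. These 2 were SNORA41 with EEF1B2 (-1.17 and -0.93) and SNORD53 with WDR43 (-1.55 and -0.54). For 18 members the snoRNA alone was called, for 9 the host alone and for 51 neither. The median difference of the 20 called members was -1.40 and that of their hosts -0.35, with hosts between -0.93 and -0.16. Each of the 20 lay below its host, but a dim snoRNA probe set and a bright host probe set have different ranges, members were counted here because they were low, and the difference between member and host was not tested.

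Over the 80 pairs at 24 h, the differences of snoRNA and host had a Pearson correlation of 0.30 and a Spearman correlation of 0.28, as a description of points that share arrays and in part hosts. Leaving out replicate 1 or replicate 2 of 24 h turned the count of 18 into 9 or 11, and leaving out replicate 1 of 0 h gave 8. At 48 h the snoRNA was called in 9 of the 80 pairs and the host in 18, where 2768 of all 18417 genes were called in either direction. The snoRNA alone was called in 6 pairs, the host alone in 15 and both in 3. Of these calls, those of SNORD13P1 and of the hosts AAK1 and FOXK1 were higher, and the others lower.

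**Figure D5:**
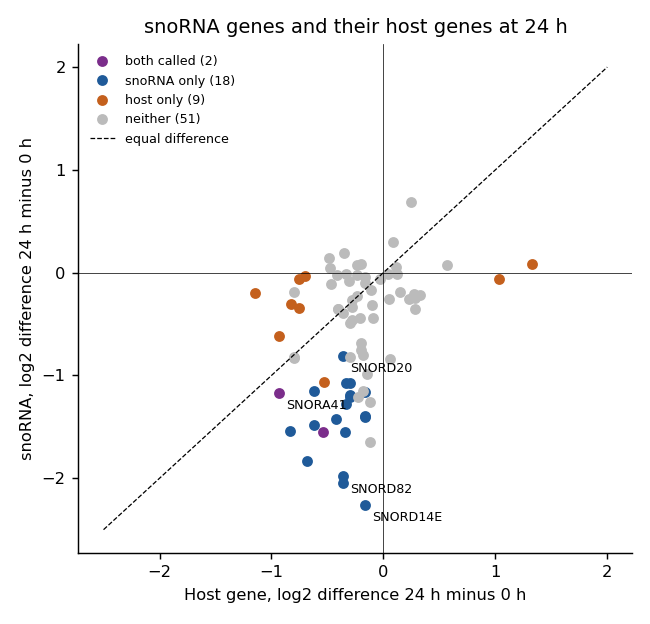
Log2 difference of each snoRNA (y axis) against that of its host gene (x axis), 24 h minus 0 h, for 80 pairs, coloured by which of both was called, with the dashed line where the differences are equal. The 20 called snoRNAs all lie below the line, with hosts between -0.93 and -0.16.

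Among genes of the snoRNA particles, the F test called 0 of 2 box C/D core proteins measured, 2 of 4 H/ACA core proteins and 6 of 11 assembly factors, against 16.4% of all genes. Of the box C/D core proteins FBL and NOP58 were measured, and 0 of 2 were called at any time by limma, with FBL at -0.88 at 48 h (adjusted p = 0.0539). All 4 H/ACA core proteins were measured. DKC1, the pseudouridine synthase, had 8.48, 8.71 and 8.69 at 24 h, against 9.27, 9.23 and 9.37 at 0 h, and was called lower at 8, 12, 24 and 48 h (difference at 24 h -0.66, SE 0.16, adjusted p = 0.00819). NHP2 was called lower at 48 h, with 3.89, 4.57 and 6.04, against 6.48, 7.05 and 6.89 at 0 h (difference -1.97, SE 0.43, adjusted p = 0.00372). Both genes' arrays lay below those of 0 h at those times, and NHP2 varied widely between the 48 h arrays.

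Of the 11 assembly factors, 2 were called higher and none lower at both 8 and 12 h by limma, against 3.50% and 3.91% of all genes called higher. They were RPAP3 (differences 0.84, adjusted p = 0.00587, and 0.78, adjusted p = 0.00806), a co-chaperone of box C/D assembly, and TGS1 (differences 0.67, adjusted p = 0.0058, and 0.49, adjusted p = 0.0327), which modifies the cap of some snoRNAs. At 24 h 2 were lower, against 5.74% of all genes, and none higher. They were ZNHIT3 (difference -1.13, adjusted p = 0.0141), which acts in box C/D assembly, and NAF1 (difference -0.70, adjusted p = 0.0247), which acts in H/ACA assembly. Of 8 genes for trimming and decay of RNA, the F test called 2, against 16.4% of all genes. TENT4B, a poly(A) polymerase that marks RNAs for the exosome, was called higher at all 5 times, most at 4 h with 9.65, 9.77 and 9.82, against 8.61, 8.34 and 8.65 at 0 h (difference 1.21, SE 0.17, adjusted p = 0.000978). XRN1, a cytoplasmic exonuclease, was higher at 24 h (difference 0.98, adjusted p = 0.0105) and at 48 h (difference 1.27, adjusted p = 0.00118). PARN, a deadenylase that trims H/ACA snoRNAs, was called lower at 48 h (difference -0.58, adjusted p = 0.043). Of the long noncoding hosts measured themselves, EPB41L4A-AS1 was lower at 24 h (difference -1.14, adjusted p = 0.0181). TAF1D, a snoRNA host that encodes a factor of RNA polymerase I and was listed with them, was lower too (difference -0.85, adjusted p = 0.011).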

How the data were processed

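The deposited values are log2 intensities, 1 per probe set, from 18 Affymetrix arrays. Per the labels' protocols, column-bound total RNA was turned into biotinylated cDNA. The range of values showed the base of the log. No change was made to the authors' values, whose software, background correction and normalization are not given in the sources used here.

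Of 33297 probe sets, 19460 name 1 gene in the platform's gene table, which gave 18417 genes, each by its probe set of highest mean. Of 253 probe sets that name a snoRNA, 74 name several genes and gave no member, so that 82 of 258 snoRNA genes are not analysed singly here. SNORA10 and SNORA15 had more than 1 probe set. Hosts are the shortest other gene span that holds the member in RefSeq (GRCh38.p14), with SNHG genes and GAS5 taken first and strand not checked, and 14 members had several such spans.

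Harvest time was the only term of a linear model on all 18 arrays (limma 3.58.1, R 4.3.3, 12 residual degrees of freedom), with two-sided moderated tests and Benjamini-Hochberg adjustment over all genes. The model was tested on simulated data. The labels call the replicates biological without naming separate cultures, so p-values cover the spread between these arrays. No counts stand behind an intensity, so the number of arrays limits the precision.

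Members named are the 15 past the F test with the largest difference and arrays apart, the 3 largest rises and falls called per time, the 4 of highest mean signal in each class, and the measured snoRNAs of precursor cleavage. The members, lists and rule were chosen with earlier results of these data known. SNORD32A, SNORD33, SNORD35A, SNORD50A, SNORD77 and SNORD116-15 fall outside the rule and were chosen after their values were seen. One member that the rule takes is not reported here. Same-numbered replicates had a median correlation of 0.08 in their deviations over 45 pairs, of which 20 exceeded 0.1. Replicates of different number had a median of -0.06 over 90 pairs, of which 25 exceeded 0.1. All same-numbered pairs of 0 h with 8 h and of 4 h with 8 h exceeded 0.1, up to 0.60. Pairing by number was thus not settled. The main model did not pair the arrays, and a replicate block was 1 of the alternatives. Alternatives were quantile normalization, centring on array medians, leaving out the dimmest 25% of genes, averaging probe sets, only the 6 arrays compared, a replicate block, array weights and leaving out each array.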

Additional observations from a re-analysis of the deposited data

How the results depend on the processing

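No member call reversed its direction, while the untested difference between classes changed sign at 8 and 24 h under some alternatives. Of 74 member calls over the 5 times, 24 were kept under every alternative that tested the member, and at 24 h 13 of 29 were. Members among the dimmest 25% of genes had 12 such alternatives and the others 13. The former were not tested without the dimmest 25%, so their calls were not put to that alternative. Averaging probe sets left the values of all called members unchanged, so it put their calls to little test. The F test called 20 members as reported, 32 with each array centred on its median, 13 without the dimmest 25% of genes, 60 with array weights and 15 to 29 with 1 array left out. Of all 18417 genes it called 3023 as reported, 3266 with centring and 5422 with array weights. At 4 h the count of 5 became 11 with centring, 2 without the dimmest 25%, 18 with array weights and 0 to 8 with 1 array left out. At 8 h the count of 8 became 4 without the dimmest 25%, 2 with only the 6 arrays of the 2 times, 15 with array weights and 0 to 14 with 1 array left out. At 12 h the count of 16 became 26 with centring, 10 without the dimmest 25%, 29 with only the 6 arrays, 30 with array weights and 8 to 15 with 1 array left out. At 24 h the count of 29 became 51 with array weights and 16 to 29 with 1 array left out, and lay between 26 and 36 otherwise. At 48 h the count of 16 became 25 with centring and 12 to 18 with 1 array left out. With the replicate block the counts over 4, 8, 12, 24 and 48 h were 8, 8, 20, 29 and 18, with 22 for the F test, and only the 4 h count moved by over 1.5 times. Counts over all genes moved as well. Over those times the main fit called 322, 1230, 1483, 2298 and 2768 of 18417 genes. With array weights 566, 2183, 2073, 3256 and 2826 were called. With 1 array left out, 1634 to 2027 genes were called at 24 h.

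The SNORD minus SNORA difference moved to -0.345 at 4 h and -0.109 at 24 h without the dimmest 25%. With 1 array left out it spanned -0.268 to -0.147, -0.134 to 0.0693, -0.164 to -0.0431, -0.0462 to 0.085 and 0.0263 to 0.151 over the 5 later times. The count of 18 members called at 24 h without their host was 8 to 17 with 1 array left out, and 14 to 27 under the other alternatives, all of which were chosen for this count after seeing the data. The causes were not tested. Without the dimmest 25%, 91 of 176 members were tested, so fewer could be called. Dim members can hide differences under background, and signal over background was not analysed here.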

Other observations

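The 74 probe sets that name several genes, at least 1 of them a snoRNA, belong to no member and were set beside the members as a description. Over 4, 8, 12, 24 and 48 h their median log2 difference ran -0.29, -0.27, -0.39, -0.47 and -0.27. At 24 h, 69 of the 74 differences were negative, and for 31 probe sets all 3 arrays of 24 h lay below all 3 arrays of 0 h, with 0 above. Of the 74, 51 also name a gene that is not a snoRNA of these classes, and 47 of these were negative at 24 h and 24 lay apart. The other 23 name snoRNA genes only, with a median level of 2.92. At 24 h 22 of these 23 were negative and 7 lay apart. At 48 h 11 of the 23 were negative, with a median difference of 0.007. They were not part of the fit over genes, so no adjusted p belongs to them.

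Among all 176 members, 58 had their 24 h arrays below all 0 h arrays and 0 above, while among all 18417 genes 2512 lay below and 2530 above. At 12 h, 51 members lay below and 4 above, against 2260 and 2880 of all genes. At 4 h these counts were 37 and 1, against 1466 and 1926. At 8 h they were 12 and 2, against 1957 and 1584, and at 48 h 28 and 2, against 2435 and 2791.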
